A study of Mus musculus with 8 samples.

Results

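The 7 genes described here are those of acetylcholine handling and of motor neuron identity in the injured mouse spinal cord: Chat, Slc18a3, Slc5a7, Ache, Mnx1, Isl1 and Isl2. They were chosen by name from the 54532 genes of the deposited count table, and each name matched 1 gene. Read counts came from 8 spinal cord samples taken 7 days after spinal cord injury (SCI). The tested animals were of genotype Tia1Nestin-CKO, with 4 libraries called CKO 1 to 4, and were set against mice of genotype Tia1f/f, with 4 libraries called control 1 to 4. Tia1f/f denotes a Tia1 gene flanked by recombination sites, and the CKO name is that of a conditional knockout through Nestin, whose promoter is active in neural progenitors, the source of neurons, astrocytes and oligodendrocytes. The TIA1 protein binds RNA and gathers in stress granules. Every group was injured, so no result here bears on injury itself. The Cre line, whether it is inducible, the deleted exons, the age and sex of the mice and the cord segment sampled are not stated in the labels. The samples are numbered in the labels but not stated to come from separate mice, so p-values measure the spread between these samples, which may be in part technical.

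Cholinergic neurons make acetylcholine with choline acetyltransferase (Chat), load it into vesicles with the vesicular acetylcholine transporter (Slc18a3, also called VAChT) and take choline back up with the high-affinity choline transporter (Slc5a7, also called CHT1). Acetylcholinesterase (Ache) breaks the transmitter down in the synaptic cleft. In the spinal cord the most prominent cholinergic cells are the motor neurons of the ventral horn, whose axons leave the cord to drive skeletal muscle. Their fate is set in the embryo by the homeodomain factors Mnx1 (also called HB9), Isl1 and Isl2. Isl1 and Isl2 are also expressed in the sensory neurons of the dorsal root ganglia.

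Chat and Slc18a3 form 1 locus, which bears on how their reads can be told apart, and its sequence is shown for that reason. On GRCm38, Chat lies on the minus strand of chromosome 14 from 32408203 to 32465989. Slc18a3, a gene of 1 exon, lies on the same strand from 32462438 to 32464850, inside an intron of Chat. The nearest Chat exons of GENCODE M21 lie 956 bases upstream and 395 bases downstream, and no exon base of Chat is shared with Slc18a3. Reads of the annotated exons are thus separable by position. Reads of unspliced Chat RNA over this intron would still be counted as Slc18a3. The opposite-strand gene Gm2990 spans the 5′ end of Chat without sharing exon bases. Slc5a7 lies on chromosome 17 (54273590 to 54299034, minus strand) and overlaps no other annotated gene. Ache lies on chromosome 5 (137287519 to 137294466, plus strand) and shares 98 of its 4623 exon bases with the opposite-strand gene Gm42456, which had 0 counts in every library. The microRNA gene Mir8116 lies inside Ache outside its exons, with 0 to 4 counts. Isl2 lies on chromosome 9 (55538672 to 55546180, plus strand) and contains the opposite-strand gene Gm17226, with no shared exon bases and 0 to 9 counts. Mnx1 (chromosome 5, 29473034 to 29478470, minus strand) and Isl1 (chromosome 13, 116298281 to 116309689, minus strand) overlap no other annotated gene.

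The RefSeq start-site windows, 250 bases before to 50 bases after the start on GRCm38.p6, were found for all 7 genes. They are shown for Chat and Slc18a3, which share the locus, and for Slc5a7 and Isl2, which varied most between libraries of those tested. Capitals mark any of 4 motifs on either strand: the homeodomain core TAAT, the CCAAT box CCAAT, the GC box GGGCGG and the core TGACGT of the cyclic AMP response element.
Chat, chr14:32465860-32466159, minus strand: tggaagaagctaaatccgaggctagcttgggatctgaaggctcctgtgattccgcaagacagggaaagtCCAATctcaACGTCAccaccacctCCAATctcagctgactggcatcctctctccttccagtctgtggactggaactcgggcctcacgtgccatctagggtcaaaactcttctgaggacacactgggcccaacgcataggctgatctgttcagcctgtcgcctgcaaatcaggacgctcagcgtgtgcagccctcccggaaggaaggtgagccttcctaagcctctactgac
Slc18a3, chr14:32464801-32465100, minus strand: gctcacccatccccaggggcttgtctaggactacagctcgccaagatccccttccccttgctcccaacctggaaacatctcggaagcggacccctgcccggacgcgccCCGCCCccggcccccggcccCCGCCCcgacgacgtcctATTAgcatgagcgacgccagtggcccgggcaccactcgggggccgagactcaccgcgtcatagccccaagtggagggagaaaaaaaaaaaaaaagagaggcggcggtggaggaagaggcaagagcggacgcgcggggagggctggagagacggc
Slc5a7, chr17:54298985-54299284, minus strand: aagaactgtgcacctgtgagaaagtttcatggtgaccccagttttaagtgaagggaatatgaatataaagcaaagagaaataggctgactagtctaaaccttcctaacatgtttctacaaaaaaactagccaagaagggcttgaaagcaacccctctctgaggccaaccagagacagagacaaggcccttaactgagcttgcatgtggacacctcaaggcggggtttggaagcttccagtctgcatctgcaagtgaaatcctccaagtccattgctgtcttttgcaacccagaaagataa
Isl2, chr9:55540899-55541198, plus strand: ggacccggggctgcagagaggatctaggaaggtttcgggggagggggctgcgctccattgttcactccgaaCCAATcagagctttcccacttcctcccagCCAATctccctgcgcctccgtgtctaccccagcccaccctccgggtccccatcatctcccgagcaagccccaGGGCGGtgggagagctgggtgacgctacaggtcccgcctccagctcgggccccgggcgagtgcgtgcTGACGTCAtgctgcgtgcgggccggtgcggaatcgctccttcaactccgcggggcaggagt
The Chat window held 2 CCAAT boxes and 1 cyclic AMP core, the Slc18a3 window 2 GC boxes and 1 TAAT, and the Slc5a7 window none of the 4 motifs. The Isl2 window held 2 CCAAT boxes, 1 GC box and 2 overlapping cyclic AMP cores, which together spell the palindrome TGACGTCA. Across all 32851 windows of the table, 58.0% held TAAT, 37.4% CCAAT, 35.7% GGGCGG and 7.51% TGACGT. The GC content was 55.7% for Chat, 67.0% for Slc18a3, 44.7% for Slc5a7 and 67.3% for Isl2, beside a median of 52.7% over all windows. These matches describe the letters of the windows and say nothing of the factors that bind.

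Libraries held 14752733 to 17802884 counts. Control 1 stood apart, with 18884 genes counted against 22434 to 23414 in the others, and took the far end of the first principal component, which held 41.6% of the variance. Tia1, the targeted gene, had 23.4 to 32.1 CPM (counts per 1000000, with library sizes scaled by TMM) in CKO libraries and 24.4 to 41.9 CPM in control libraries, so the groups overlapped (log2 fold change -0.29, SE 0.19, edgeR adjusted p = 1.00). For Tia1, control 2 lay among the CKO libraries and CKO 4 above control 3. Neuronal and oligodendrocyte markers, given further on, were present in all 8 libraries, as the tissue label has it. No gene of the 16537 tested passed an adjusted p of 0.05 in edgeR's quasi-likelihood test (0% called), and 234 had an unadjusted p under 0.05.

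None of the cholinergic and motor neuron genes tested was called between CKO and control by the test over all genes, which does not show that their levels were equal. Chat, Slc18a3, Slc5a7, Ache and Isl2 passed the filter on low counts and were tested, and Mnx1 and Isl1 had too few reads. Of the 5 tested, 4 had a lower mean in CKO and 1 a higher mean, with a median log2 fold change of -0.34. The median was -0.19 without control 2, and without control 1 and control 2 it was -0.08 with 3 of 5 lower. Over all genes tested, 51.9% had a lower mean in CKO and the median was -0.01. Groups overlapped for each of the 5 genes, where 1.19% of all genes tested had groups that did not overlap. Slc5a7 alone had an unadjusted p under 0.05, as did 1.42% of all genes tested.

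**Figure D1:**
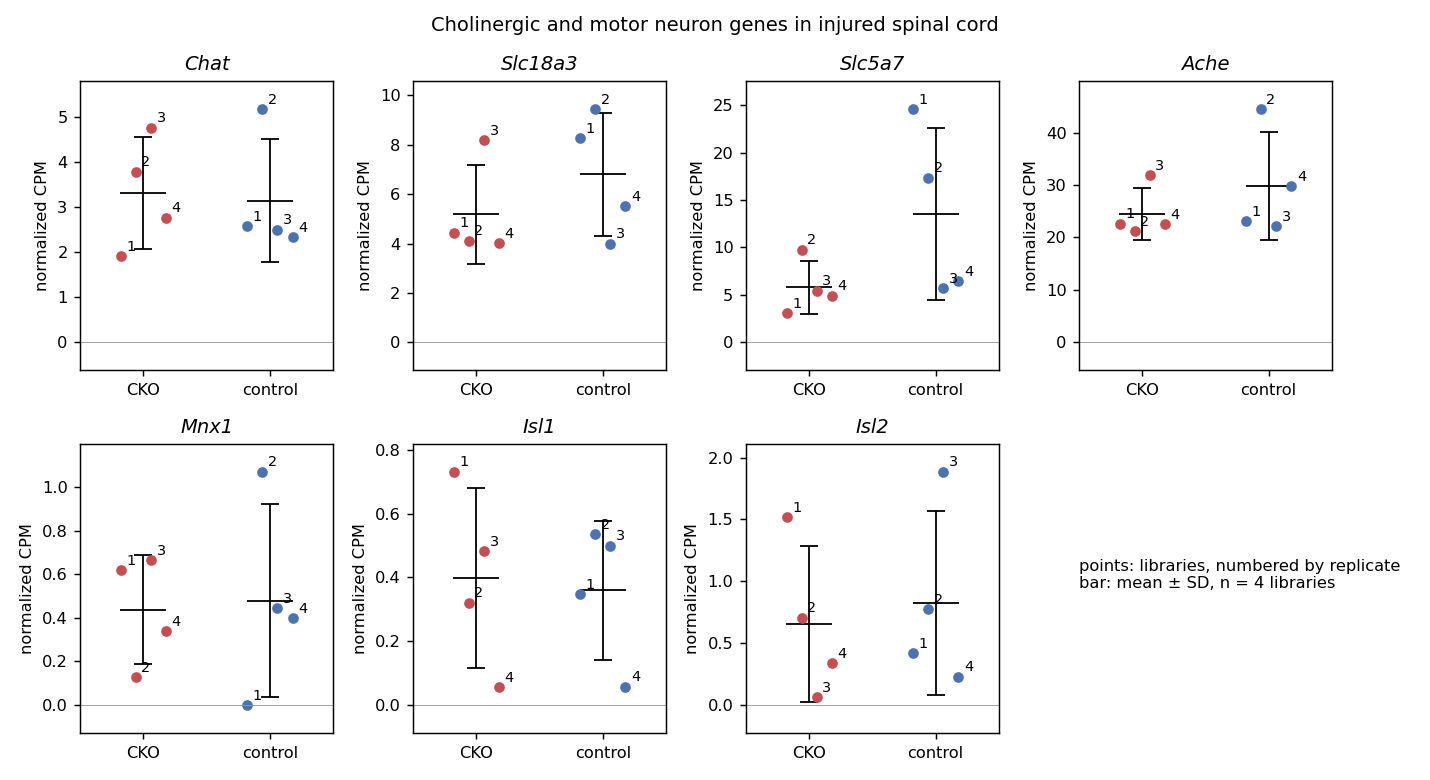
Normalized CPM (vertical axes, including 0) of the 7 genes in each library, CKO left of control, with points numbered by replicate and bars for the mean and SD of 4 libraries. Slc5a7 was high in control 1 and control 2 alone, Chat, Slc18a3 and Ache were highest in control 2 with CKO 3 the highest of its group, and Isl2 was highest in control 3 and CKO 1.

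The levels of the 7 genes, compared per length in the authors' deposited FPKM, ran from the enzyme that ends transmission down to the transcription factors. Averaged over the 8 libraries, Ache had 5.84 FPKM, Slc18a3 2.46, Slc5a7 1.69, Chat 0.679, Isl2 0.336, Mnx1 0.202 and Isl1 0.0948 FPKM. Ache stood above Slc18a3 in 8 of 8 libraries, and their ranges did not overlap. All other neighbours in this order had overlapping ranges: Slc18a3 exceeded Slc5a7 in 6 of 8 libraries, Slc5a7 exceeded Chat in 7, Chat exceeded Isl2 in 6, Isl2 exceeded Mnx1 in 5 and Mnx1 exceeded Isl1 in 6. Slc18a3, read from the same locus, had a higher FPKM than Chat in every library, with a ratio of 4.53, 2.11, 3.36 and 2.82 in CKO 1 to 4 and 6.27, 3.56, 3.12 and 4.61 in control 1 to 4. The part of unspliced Chat RNA in these ratios was not tested.

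Slc5a7, which returns choline to the cholinergic terminal, showed the widest gap between the group means. It had 3.09, 9.75, 5.42 and 4.90 CPM in CKO 1 to 4, against 24.6, 17.4, 5.71 and 6.47 CPM in control 1 to 4. Control 1 and control 2 lay above every other library, while control 3 and control 4 lay among the CKO libraries, below CKO 2. The means were 5.79 ± 2.82 CPM in CKO and 13.5 ± 9.10 CPM in control (SD, n = 4 each). On the log2 scale CKO over control came to -1.22 (SE 0.49, 95% interval -2.31 to -0.14), at an unadjusted edgeR p of 0.0303 and an adjusted p of 1.00. Without control 1 the log2 fold change was -0.77, and without control 1 and control 2 together it was -0.08 (SE 0.40). These are the highest control libraries for Slc5a7, so leaving them out had to lower the difference. Control 1 is also the library that stood apart over the whole transcriptome.

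Slc5a7 was out of proportion to Chat in control 1. For each Chat read there were 1.62, 2.58, 1.14 and 1.78 Slc5a7 reads in CKO 1 to 4, against 9.57, 3.36, 2.29 and 2.78 in control 1 to 4. Control 1 had 354 Slc5a7 reads and 37 Chat reads, so this ratio does not rest on a few reads of Slc5a7. Its counting error comes mostly from the 37 Chat reads, and CKO 1, with 34 Chat reads, has the same limit. The genes whose log2 CPM followed Slc5a7 most closely over the 8 libraries were C630043F03Rik (Pearson r = 0.993), the serotonin receptor gene Htr2a (r = 0.985), 1700040D17Rik (r = 0.984), Zfp87 (r = 0.9746) and Ccdc73 (r = 0.9745). These genes lie on chromosomes 4, 14, 3, 13 and 2, none of them the chromosome of Slc5a7. Without control 1 and control 2, the libraries farthest from its median, r was 0.992, 0.946, 0.959, 0.919 and 0.945 over 6 libraries. The points share library preparation and depth, the genes were picked as the closest of 16537, and no p is given for them. Htr2a had 2.42, 5.45, 3.80 and 4.23 CPM in CKO 1 to 4 and 9.80, 8.50, 3.83 and 4.43 CPM in control 1 to 4, the same 2 control libraries standing above the rest.

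**Figure D2:**
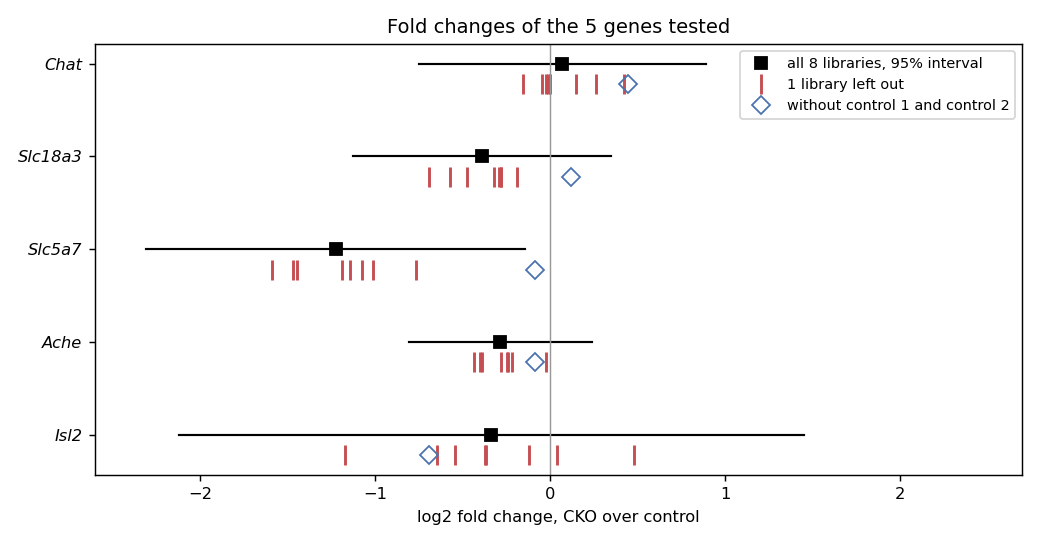
Log2 fold change of CKO over control (horizontal axis) for the 5 genes tested, with squares and lines for all 8 libraries and the 95% interval, red ticks for fits without 1 library and diamonds for the fit without control 1 and control 2. The diamond of Slc5a7 lies at -0.08, close to 0, against -1.22 with all libraries, and the ticks of Chat and Isl2 fall on either side of 0.

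Chat, the synthetic enzyme, had group means that differed by less than the spread between libraries. It had 1.91, 3.78, 4.76 and 2.76 CPM in CKO 1 to 4, against 2.57, 5.17, 2.50 and 2.33 CPM in control 1 to 4. Control 2 and CKO 3 were the highest libraries and CKO 1 the lowest, and the groups overlapped over most of their range. The means were 3.30 ± 1.24 CPM in CKO and 3.14 ± 1.36 CPM in control (SD, n = 4 each), a log2 fold change of 0.07 (SE 0.37, 95% interval -0.75 to 0.89, edgeR adjusted p = 1.00). The interval leaves room for a change of the size printed for Slc18a3 or Ache in either direction. Chat had 34 to 87 reads per library, against 55 to 354 for Slc5a7, 64 to 159 for Slc18a3 and 330 to 749 for Ache.

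Slc18a3, the vesicular transporter, had 4.44, 4.11, 8.19 and 4.00 CPM in CKO 1 to 4, against 8.27, 9.45, 3.99 and 5.50 CPM in control 1 to 4. As for Chat, CKO 3 and control 2 led their groups, but control 1 was also high. The means were 5.19 ± 2.01 CPM in CKO and 6.81 ± 2.50 CPM in control (SD, n = 4 each), a log2 fold change of -0.39 (SE 0.33, 95% interval -1.13 to 0.35, edgeR adjusted p = 1.00). Without control 1 and control 2 the sign turned, at 0.12.

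Ache, the breakdown enzyme, was the most abundant of the 7 and the steadiest between libraries. It had 22.6, 21.2, 31.9 and 22.5 CPM in CKO 1 to 4, against 23.1, 44.5, 22.2 and 29.7 CPM in control 1 to 4. CKO 3 and control 2 were again the highest of their groups, and 3 CKO libraries and 2 control libraries lay within 21.2 to 23.1 CPM. The means were 24.6 ± 4.96 CPM in CKO and 29.9 ± 10.3 CPM in control (SD, n = 4 each), a log2 fold change of -0.28 (SE 0.24, 95% interval -0.81 to 0.24, edgeR adjusted p = 1.00). Without control 2 it was -0.02. The genes nearest to Ache over the 8 libraries were Susd4 (Pearson r = 0.978), Snrk (r = 0.973), Cntnap1, a gene of the axonal paranode (r = 0.972), Mtcl1 (r = 0.972) and Mcf2l (r = 0.969). Without CKO 3 and control 2, r was 0.890, 0.899, 0.869, 0.825 and 0.828 over 6 libraries. Those nearest to Chat were Cd99l2 (r = 0.949), Gm16124 (r = 0.942), 2410004B18Rik (r = 0.928), Tmem178 (r = 0.918) and C230062I16Rik (r = 0.917), and without CKO 3 and control 2 their r was 0.936, 0.838, 0.873, 0.867 and 0.806. As for Slc5a7, these correlations share library and depth and describe likeness only.

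The identity factors were near the limit of detection. Mnx1 had 11, 2, 11 and 6 reads in CKO 1 to 4, against 0, 18, 8 and 7 reads in control 1 to 4. Control 2, where Chat and Ache were highest, also had the most Mnx1, at 1.07 CPM, and control 1 had 0 reads, where the exact Poisson 95% interval reaches 3.69 reads. The sums were 30 reads in CKO (interval 20.2 to 42.8, which like the others covers counting error only) and 33 reads in control (22.7 to 46.3). Isl1 had 13, 5, 8 and 1 reads in CKO 1 to 4, against 5, 9, 9 and 1 reads in control 1 to 4, with sums of 27 reads in CKO (17.8 to 39.3) and 24 reads in control (15.4 to 35.7). The fit with no filter on low counts gave Mnx1 a log2 fold change of -0.12 (SE 0.81, 95% interval -1.79 to 1.55) and Isl1 a value of 0.16 (SE 0.83, 95% interval -1.55 to 1.86). Changes within these intervals could not be resolved.

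Isl2 varied most between libraries of the same group among the 5 genes tested. It had 27, 11, 1 and 6 reads in CKO 1 to 4, against 6, 13, 34 and 4 reads in control 1 to 4, which is 1.52, 0.706, 0.0603 and 0.338 CPM in CKO and 0.417, 0.773, 1.89 and 0.227 CPM in control. CKO 1 and control 3 were the highest libraries, 1 in each group. The means were 0.656 ± 0.633 CPM in CKO and 0.826 ± 0.742 CPM in control (SD, n = 4 each), a log2 fold change of -0.34 (SE 0.81, 95% interval -2.12 to 1.45, edgeR adjusted p = 1.00). It was -1.17 without CKO 1 and 0.48 without control 3. The biological coefficient of variation of Isl2 was 0.738, at the 99.3 percentile of the genes tested, and that of Slc5a7 was 0.474, at the 92.8 percentile. Those of Chat (0.364), Slc18a3 (0.336) and Ache (0.252) were at the 82.1, 77.7 and 56.2 percentile.

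CKO 1 and control 3, the libraries with most Isl2, were also those with reads of sensory ganglion neurons. The summed level of 8 markers of such neurons was 15.01 CPM in CKO 1 and 1.35 to 2.17 CPM in the other CKO libraries, against 15.04 CPM in control 3 and 1.81 to 3.03 CPM in the other control libraries. Scn10a, a sodium channel gene of pain-sensing neurons, had 1.29 CPM in CKO 1 and 3.00 CPM in control 3, against 0 reads in 5 of the other 6 libraries. Prdm12, a transcription factor gene of the same neurons, had 0 reads in all 6 of the others. Both are named after their values were seen. Skeletal muscle genes were high in the same libraries, with 437.7 CPM summed over 7 markers in CKO 1 and 659 CPM in control 3, but also in CKO 3, at 349 CPM, where Isl2 had 1 read. The other libraries had 16.9 and 52.4 CPM in CKO and 26.4 to 126 CPM in control. The part of these cells in the level of Isl2 was not tested. With CKO 1 and control 3 left out together, an alternative added after seeing the data, Isl2 no longer passed the filter on low counts.

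**Figure D3:**
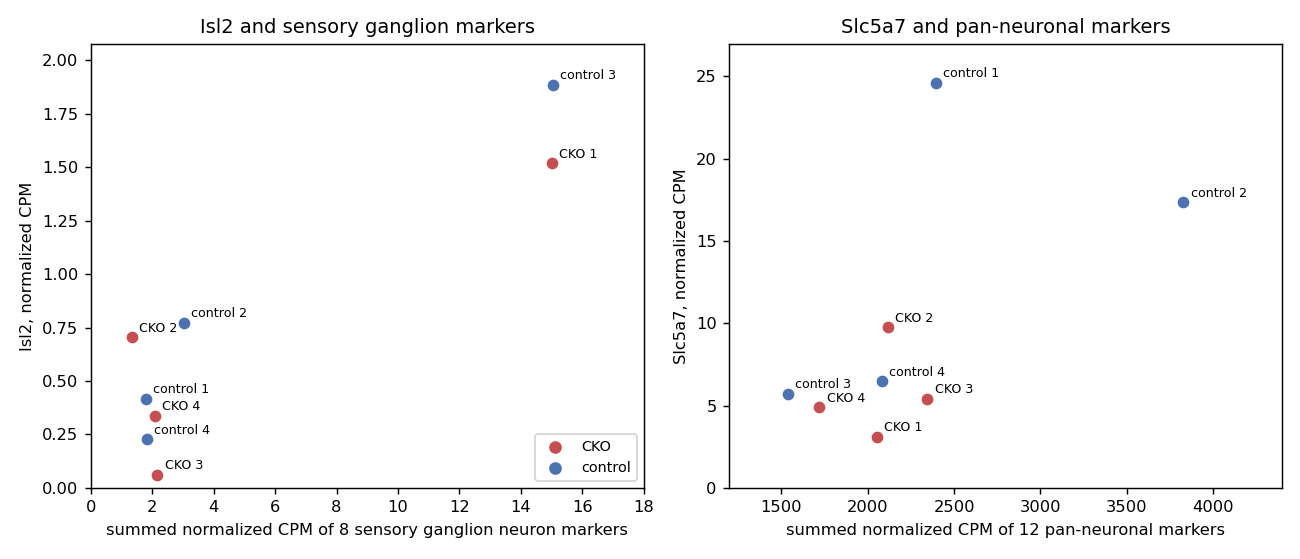
Left, Isl2 (normalized CPM) against the summed normalized CPM of 8 sensory ganglion markers. Right, Slc5a7 against the summed normalized CPM of 12 pan-neuronal markers, with the horizontal axis not starting at 0. CKO libraries are red and control libraries blue, 1 point each. CKO 1 and control 3 lie alone at 15.01 and 15.04 CPM of ganglion markers with the most Isl2, and control 1 has the most Slc5a7 at a pan-neuronal level near that of CKO 3.

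The share of neuronal RNA differed between libraries, and the cholinergic genes are set beside it. The summed level of 12 pan-neuronal markers was 1720 to 2345 CPM in CKO libraries and 1540 to 3827 CPM in control libraries, with control 2 highest. Fewer neurons and less RNA per neuron cannot be told apart in such samples. For every 1000 CPM of these markers, Chat had 0.932, 1.79, 2.03 and 1.61 CPM in CKO 1 to 4 and 1.07, 1.35, 1.62 and 1.12 CPM in control 1 to 4. On the same scale Ache had 11.02, 9.99, 13.6 and 13.1 CPM in CKO and 9.63, 11.6, 14.4 and 14.3 CPM in control. On this scale control 2 was not the highest control library for either gene. Control 2 has the largest divisor, so the scale had to lower it against the other libraries for every gene. Slc18a3 had 2.17, 1.94, 3.49 and 2.33 CPM in CKO and 3.45, 2.47, 2.59 and 2.64 CPM in control, with control 2 the lowest control library and control 1 the highest. Slc5a7 had 1.51, 4.60, 2.31 and 2.85 CPM in CKO and 10.3, 4.54, 3.71 and 3.10 CPM in control, so control 1 stayed apart on this scale as well. The part of neuronal content in the group differences was not tested.

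**Figure D4:**
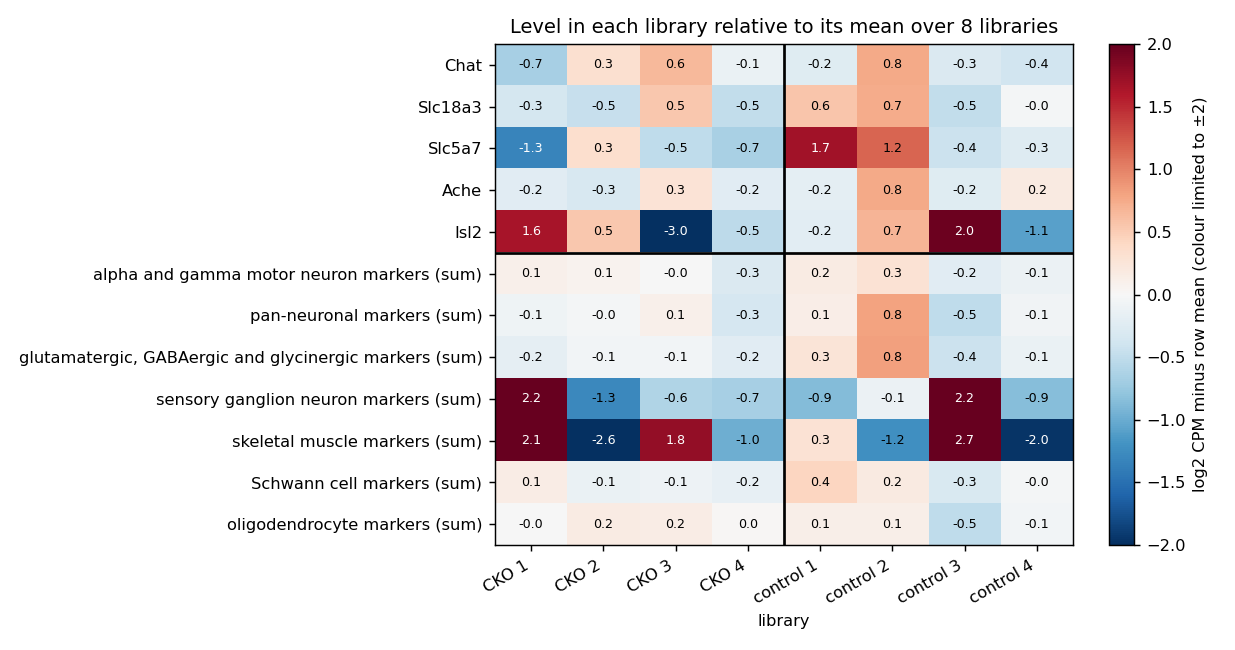
Log2 CPM of the 5 genes tested and of the summed CPM of 7 marker lists in each library (columns, CKO left of control), each relative to its row mean over 8 libraries, with red for higher and blue for lower. The pan-neuronal and transmitter rows share the high value of control 2 with Chat, Slc18a3 and Ache, and the sensory ganglion row shares the high values of CKO 1 and control 3 with Isl2.

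Other markers of motor neurons gave no called gene. Of 13 markers of alpha and gamma motor neurons, which drive force-producing and spindle muscle fibres, 12 were tested, 10 with a lower mean in CKO and 2 with a higher mean, with a median log2 fold change of -0.15. Their 3 most abundant were Sv2a, a synaptic vesicle gene of many neurons (80.4 ± 12.4 CPM in CKO and 89.2 ± 18.8 CPM in control, SD, n = 4 each), Gfra1, a receptor for the trophic factor GDNF (45.3 ± 2.41 CPM in CKO and 45.5 ± 13.6 CPM in control), and Mmp9. Mmp9 marks fast motor neurons in the intact cord but is also made by neutrophils, and had 36.9 ± 15.9 CPM in CKO and 22.8 ± 6.42 CPM in control, with groups that overlapped. In 3 of the 12 (Sv2a, Chodl and Esrrg) control 1 and control 2 lay above all CKO libraries and control 3 and control 4 did not. The same held for 2 of the 5 cholinergic and motor neuron genes tested and 4 of 12 pan-neuronal markers. It also held for 2 of 6 glutamatergic, GABAergic and glycinergic markers and 1 of 4 muscarinic receptor genes. In the other lists no gene had this pattern, as in 0 of 6 oligodendrocyte markers. The share of all genes tested with this pattern was not computed, so the 3 are not read as a trait of motor neurons. Chodl and Esrrg, markers of fast alpha and of gamma motor neurons, are named after their values were seen. Chodl had 3.60, 6.35, 4.88 and 3.38 CPM in CKO 1 to 4, against 12.9, 12.6, 3.77 and 3.63 CPM in control 1 to 4. Esrrg had 8.77, 10.8, 8.86 and 7.72 CPM in CKO 1 to 4, against 15.4, 30.1, 5.83 and 6.98 CPM in control 1 to 4. With each library left out in turn, the median of the list ran from -0.27 without CKO 1 to -0.055 without CKO 4, and it was -0.068 without control 2. Without control 1 and control 2, 5 of the 12 had a lower mean in CKO.

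A list of motor neuron and motor column genes, all transcription factors except the retinoic acid-making enzyme Aldh1a2, had 9 of 14 genes tested, 6 with a higher mean in CKO and 3 with a lower mean (median log2 fold change 0.20), and none passed. Several are also expressed by other cells of the cord, such as Olig2 by oligodendrocytes and Aldh1a2 by meningeal fibroblasts. Pou3f1, a factor of phrenic motor neurons that Schwann cells also use, was the 1 gene with groups that did not overlap. It had 8.997, 7.06, 10.002 and 7.22 CPM in CKO 1 to 4, against 5.01, 6.54, 5.55 and 6.07 CPM in control 1 to 4, with each CKO library above each control library. Its log2 fold change was 0.52 (SE 0.20, edgeR adjusted p = 1.00), and groups with CKO higher throughout made up 0.701% of all genes tested. The 3 most abundant of this list, Etv1, Aldh1a2 and Foxp1, had log2 fold changes of -0.29, -0.02 and 0.22. Without CKO 4, 5 of the 9 had a lower mean in CKO and the median was -0.07.

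Receptors for acetylcholine were mostly low. Of 16 nicotinic subunit genes 6 were tested, 5 with a lower mean in CKO and 1 with a higher mean, with a median log2 fold change of -0.18, which was -0.04 without control 2 and -0.32 without CKO 1, and none passed. The brain-type subunits Chrnb2 (7.66 ± 1.49 CPM in CKO and 9.01 ± 2.00 CPM in control, SD, n = 4 each) and Chrna4 (4.60 ± 1.45 CPM in CKO and 4.98 ± 1.16 CPM in control) were the most abundant, followed by the muscle-type subunit Chrnb1 (log2 fold change 0.03). Chrna10 had 0 reads in all 8 libraries. Chrnb4, a subunit of autonomic ganglia, had too few reads to test. Its groups did not overlap, with 5, 8, 9 and 11 reads in CKO 1 to 4, against 0, 0, 2 and 3 reads in control 1 to 4. The share of genes without overlap was computed among tested genes only, so Chrnb4 is not read as a difference between the groups. The fit with no filter on low counts called 0 of 28894 genes. Of 5 muscarinic receptor genes 4 were tested, each with a lower mean in CKO (median log2 fold change -0.46, and -0.19 without control 3), and none passed. Chrm2, the autoreceptor of many cholinergic terminals, had 5.57, 8.28, 3.07 and 5.69 CPM in CKO 1 to 4, against 9.45, 17.7, 4.94 and 4.65 CPM in control 1 to 4. Control 1 and control 2 were again the highest libraries, and the groups overlapped. Chrm3 and Chrm1 were at -0.60 (SE 0.57) and -0.33 (SE 0.58) on the log2 scale. Without control 1 and control 2 together, or without control 3 alone, 2 of the 4 muscarinic genes had a lower mean in CKO.

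Genes of choline supply and of the anchoring of cholinesterase did not part the groups. Of 10 genes 8 were tested, 7 with a lower mean in CKO and 1 with a higher mean (median log2 fold change -0.13, between -0.32 without CKO 3 and -0.07 without control 1), and none passed. The choline transporter-like gene Slc44a1, which oligodendrocytes also express, had 283 ± 37.7 CPM in CKO and 297 ± 111 CPM in control (SD, n = 4 each), with 457 CPM in control 1. Slc44a2 had 70.9 ± 3.44 CPM in CKO and 66.9 ± 11.3 CPM in control, and the choline kinase gene Chka 30.6 ± 4.39 CPM in CKO and 34.2 ± 7.37 CPM in control.

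Markers of all neurons and of neurons with other transmitters also had mostly lower means in CKO. Of 12 pan-neuronal markers 10 had a lower mean in CKO (median log2 fold change -0.23), among them Snap25 (-0.49, SE 0.30) and Nefl (-0.49, SE 0.30), while Uchl1 was at -0.03. Of 6 tested markers of glutamatergic, GABAergic and glycinergic neurons 5 had a lower mean (median -0.31), with Slc17a6 at -0.49, Gad1 at -0.34 and Slc6a5 at -0.28. None of the 18 passed. Without control 1 and control 2, 2 of the 12 pan-neuronal markers and 1 of the 6 transmitter markers had a lower mean in CKO. These are the control libraries with the highest sums of both lists, so leaving them out had to lower the control sums. Without control 2 alone, 6 of the 12 pan-neuronal and 4 of the 6 transmitter markers had a lower mean in CKO. Without control 1 alone it was 12 of the 12 and 5 of the 6. Of 6 markers of injured motor axons 3 had a higher and 3 a lower mean in CKO, with log2 fold changes of 0.22 for Gap43, 0.15 for Jun and -0.06 for Atf3. Without CKO 4, 0 of the 6 had a lower mean in CKO.

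Other cell types are given for the RNA they could add. Markers of erythroid cells and megakaryocytes, lineages in which Ache is also known in mice, summed to 195 to 791 CPM in CKO libraries, with CKO 2 highest, and to 231 to 348 CPM in control libraries. Ache was lowest in CKO 2, at 21.2 CPM. Hbb-bs, Hba-a1 and Pf4, their 3 most abundant, had log2 fold changes of 0.41, 0.40 and 0.28. Of the 8 markers 3 had a lower mean in CKO, and 7 without CKO 2, 1 without CKO 4 and 1 without control 1. The 7 genes listed as Schwann cell markers, led by Mal, summed to 523 to 651 CPM in CKO libraries and 476 to 787 CPM in control libraries. Each of the 7 had a lower mean in CKO, and which cells their reads came from was not tested. Mal and Drp2 were at -0.05 and -0.22, and Ncmap, the 1 gene of the list with groups that did not overlap, at -0.71, with none past the threshold and 0.49% of all genes lower throughout. Oligodendrocyte markers summed to 32400 to 36542 CPM in CKO libraries and 22928 to 35213 CPM in control libraries, with Mbp at 0.20 and Mobp at 0.36, and 3 of the 6 had a lower mean in CKO, 0 without control 1. Muscle markers, whose groups overlapped, had Acta1 at -0.30, Mylpf at -0.35 and Tnnt3 at 0.44, and 3 of the 7 had a lower mean in CKO, 5 without CKO 3 and 0 without either CKO 2 or control 3. The ganglion markers Avil and P2rx3 were at 0.36 and 0.31, both with a lower mean in CKO without CKO 1. None of the genes in these lists passed the edgeR test, and their part in the levels of the 7 genes was not tested.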

How the data were processed

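The deposited files hold read counts per gene and FPKM for 54532 mouse genes in 8 libraries. The authors' counts are whole numbers with no normalization, and each deposited FPKM value equals its count over the product of listed length and a library constant. Tools named per the submitters' processing notes are fastp, CASAVA 1.8, featureCounts 1.5.0-p3, HISAT2 2.0.5 and DESeq2 1.20.0, without roles. The notes name a human build, but the 7 genes have the coordinates and exon lengths of GENCODE M21 on GRCm38. Strand use and treatment of multiply matching reads: not given in the sources used here. Per the labels' protocols, total RNA was extracted with TRIzol and libraries were made with a NEBNext Ultra RNA kit.

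Counts were analysed with edgeR 4.0.16 in R 4.3.3. filterByExpr (minimum count 10, minimum total 15) kept 16537 genes. TMM factors and the quasi-likelihood F test with genotype as the only term were used, with Benjamini-Hochberg adjustment over all genes and a threshold of 0.05. SE is the size of the log2 fold change divided by the square root of F. Normalized CPM use the same factors for every gene. Correlations are of log2 CPM with a prior count of 2. The test was tested on simulated data.

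The genes and lists were chosen with earlier results of these data known. Named from each list were its 3 most abundant genes and those with groups that did not overlap, unless stated. A few genes this rule names are not reported here. Alternatives used DESeq2 1.42.0, limma 3.58.1, other filters and scaling, fits without libraries and FPKM with pseudocounts of 1 and 0.1. The replicate numbers of the titles are not stated to pair samples, and the main fit did not use them.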

Additional observations from a re-analysis of the deposited data

Results flagged for a closer look

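Values set apart within a group of 4 were looked for in 98 groups (49 named genes in both genotypes). The gap to the nearest library, as a share of the group's range, had to exceed Dixon's 95% critical value. Its rate of 1 in 20 by chance holds for independent normal values, while these were CPM without a log, of genes that share libraries. There were 14 such values, each the highest of its group, and their number cannot be set against that rate. Among the cholinergic genes they were Slc18a3 in CKO 3 (8.19 CPM, others 4.00 to 4.44), Ache in CKO 3 (31.9 CPM, others 21.2 to 22.6) and Chat in control 2 (5.17 CPM, others 2.33 to 2.57). CKO 3 also stood apart for the nicotinic subunit Chrna4, at 6.75 CPM with the others at 3.66 to 4.16. CKO 2 stood apart for Atf3 (98.7 CPM), Hbb-bs (364 CPM) and Hba-a1 (230.0 CPM), CKO 1 for P2rx3 (3.04 CPM) and CKO 4 for Aldh1a2 (129 CPM). Control 3 stood apart for Avil (4.16 CPM), Mylpf (115 CPM), Tnnt3 (56.7 CPM), Pf4 (90.3 CPM) and Jun (100.2 CPM).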

How the results depend on the processing

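The count of genes past the threshold was 0 in every fit but the DESeq2 Wald test, which called 1 gene, none of the 7 described here, and gave 466 genes an unadjusted p under 0.05. Slc5a7 kept a negative log2 fold change in every fit, from -1.59 to -0.77 with each library left out in turn, and had an unadjusted p of 0.0507 with the replicate number as a block (log2 fold change -1.03). The block called 0 genes and gave 140 an unadjusted p under 0.05, against 234 without it. Deviations of same-numbered libraries from their group means correlated at -0.06, 0.05, -0.09 and -0.33. With 4 libraries centred within each group, such values cannot show whether the numbers pair samples. Chat ran from -0.16 to 0.42 and Isl2 from -1.17 to 0.48 with each library left out in turn, in either sign. Slc18a3 turned to 0.12 without control 1 and control 2, and Ache to 0.014 without control 2 and CKO 4. The cause was not tested. Of the marker lists, the lower count among 12 alpha and gamma motor neuron markers went to 6, and among 6 nicotinic subunits to 2, without control 2 and CKO 4. Mnx1 and Isl1 gave values in the fit with no filter and in DESeq2, and Isl2 none under the stricter filter. Mnx1, Isl1 and Isl2 had at most 34 reads in any library, and Isl2 also had a high spread between libraries.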
